A study of Arabidopsis thaliana with 8 samples.

Results

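The genes described here are 10 Arabidopsis thaliana loci of the ER body system: the jacalin-related lectin genes JAL22 (AT2G39310), JAL23 (AT2G39330), PBP1 (AT3G16420), JAL31 (AT3G16430), JAL33 (AT3G16450) and JAL34 (AT3G16460), the beta-glucosidase genes PYK10 (AT3G09260), BGLU21 (AT1G66270) and BGLU22 (AT1G66280), and NAI2 (AT3G15950). They were taken by locus from the 20701 loci of the mRNA table, and all 10 passed the filter on low counts. The set was selected on a measured value, the JAL22 counts of transgenic over wild type in these same 4 libraries. It was then extended by gene name to relatives and partners of JAL22. The differences between genotypes in these 10 genes are therefore given as a description, and no p-value is printed for them. Where calls of these genes by a test are named, nothing is read from them.

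Whole seedlings carrying the ectopic coffee homeobox gene 35S:CAHB12 were compared with wild type, both of the cultivar Columbia, at 10 days after germination, and what was asked is which transcripts differ when CAHB12 is expressed. The 35S promoter is active in most tissues. There were 2 mRNA libraries per genotype, each from a pool of 50 seedlings that the labels call a biological replicate. A pair of transgenic lines is mentioned in the design, but the labels tie no replicate to a line, so a difference between lines cannot be told apart from a difference between pools. The coffee transcript itself was not analysed here.

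ER bodies are compartments derived from the endoplasmic reticulum that plants of the cabbage family build in roots and in the epidermis of seedlings. They store beta-glucosidases, foremost PYK10, apart from their substrates. When a cell breaks, the enzyme meets jacalin-related lectins such as PBP1 and forms large complexes with them, and it then splits glucosides that include scopolin and indole glucosinolates. The bHLH factor NAI1 controls PYK10 and NAI2, and the protein NAI2 is needed for ER bodies to form.

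The libraries held between 15424261 and 19436632 counts, and the levels below are CPM, the counts per total of a library scaled up by a fixed factor, with TMM factors that put the libraries on 1 scale. On the first principal component, with 49.1% of the variance, the transgenic replicates 1 and 2 lay at -9.37 and -26.8 and the wild-type replicates 1 and 2 at 32.5 and 3.67, so transgenic replicate 2 and wild-type replicate 1 stood farthest out. Root and green tissue markers were counted in every library, with none at 0. The summed level of the 16 root markers was 84.6 and 107 CPM in transgenic libraries, against 89.8 and 101 CPM in wild type, and that of the 8 green tissue markers was 24961 and 25417 CPM, against 27845 and 25123 CPM. Both sums overlapped between the genotypes, but single markers lay apart. Of the 8 green tissue markers 4 had lower values in both transgenic libraries and 1 had higher. Over all loci tested, 19.3% lay apart as lower and 20.2% as higher. An unadjusted edgeR p under 0.05 was found for 4 of the 8, beside 7.92% of all loci, though edgeR and DESeq2 called 0. CAB2 (log2 fold change -0.44), LHCB2.1 (-0.58) and LHCB2.3 (-0.57), which encode light-harvesting proteins, were on the lower side, and the Rubisco gene RBCS2B (0.25) was on the higher side. Of the 15 root markers tested, 3 lay apart as higher and 5 as lower, beside the same 20.2% and 19.3% of all loci. The unadjusted edgeR p was under 0.05 for 3 of them, beside 7.92% of all loci, and edgeR and DESeq2 called 0. The part of these differences in the results below was not tested. In RNA from whole seedlings, fewer cells of a type and less RNA per cell cannot be told apart.

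In seedlings expressing CAHB12, the transcript of the lectin gene JAL22 stood 2.43-fold above wild type, that of its neighbour JAL23 was lower, and JAL33 stood 1.46-fold above wild type. The lectin gene PBP1 and the ER body gene NAI2 had nearly the same level in both genotypes. PYK10 and the genes JAL31, JAL34, BGLU21 and BGLU22 had means above wild type by at most 1.23-fold. In all, 9 of the 10 genes had a higher mean in transgenic seedlings, with a median log2 fold change of 0.22. The median over the 20298 loci tested was 0.0065 and 51.4% of the loci lay above 0. The 9 include JAL22, on which the set was selected, and relatives and partners added to it, so nothing is read from this count or median.

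**Figure D1:**
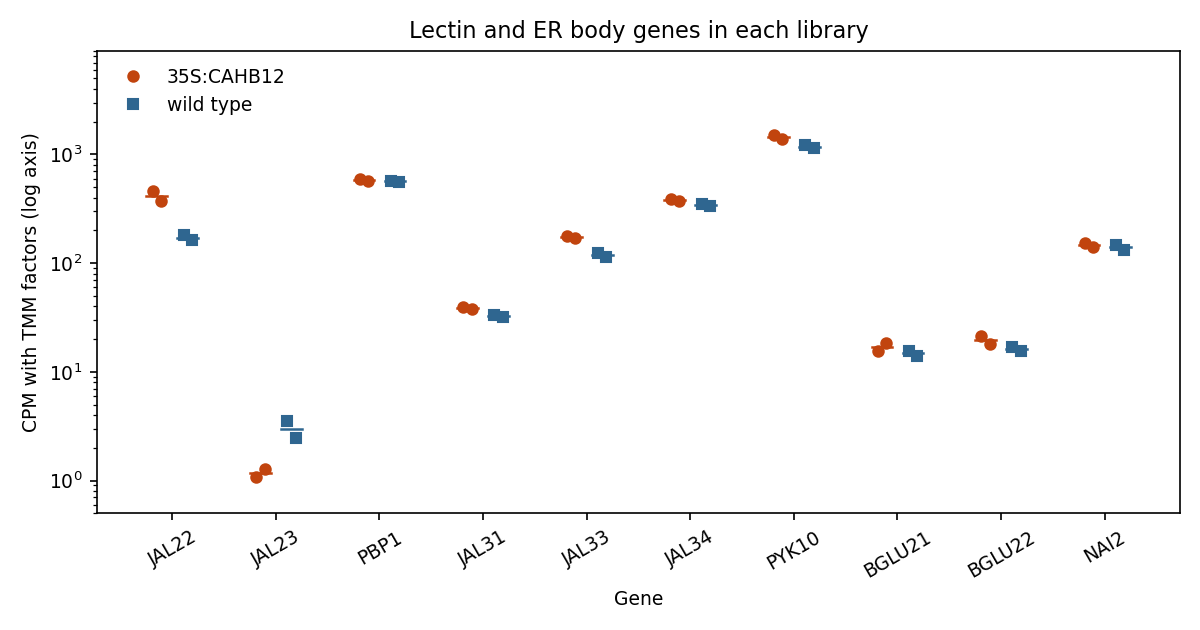
Level of each of the 10 genes in CPM with TMM factors (log axis) in the 2 transgenic libraries (circles, left) and the 2 wild-type libraries (squares, right), with the group mean as a short line. JAL22 stands at 459 and 376 CPM against 181 and 163 CPM, JAL23 is the 1 gene with both transgenic libraries below wild type, and PBP1 and NAI2 overlap.

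Among the lectins, JAL22 encodes a protein found in the PYK10 complex. Its level was 459 and 376 CPM in the transgenic libraries, against 181 and 163 CPM in the wild-type libraries. The lower of the transgenic values was thus above the higher wild-type value, and the log2 fold change was 1.28 (SE 0.12), with 417 ± 59.0 CPM in transgenic and 172 ± 13.01 CPM in wild-type seedlings (SD, n = 2 each). With any 1 library left out, the log2 fold change lay between 1.12 (without transgenic replicate 1) and 1.42 (without transgenic replicate 2). Of all loci tested, 45 had a larger positive log2 fold change than JAL22.

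JAL23, which lies next but 1 to JAL22 on chromosome 2, encodes another lectin of that complex. It had 17 and 21 counts in the transgenic libraries, against 55 and 48 counts in the wild-type libraries. Both transgenic values lay below both wild-type values, and in CPM the levels were 1.07 and 1.29 in transgenic, against 3.51 and 2.48 in wild-type seedlings. The exact Poisson 95% intervals, which cover counting error only, were 0.626 to 1.72 CPM and 0.798 to 1.97 CPM in the transgenic libraries, against 2.65 to 4.57 CPM and 1.83 to 3.29 CPM in the wild-type libraries. The interval of transgenic replicate 2 thus met that of wild-type replicate 2. The log2 fold change was -1.32 (SE 0.31), and with 1 library left out it ranged from -1.57 (without wild-type replicate 2) to -1.07 (without wild-type replicate 1).

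The ratio of JAL22 to JAL23 counts needs no scaling between libraries. It was 427 and 291 in the transgenic libraries, against 51.6 and 65.5 in the wild-type libraries. Both genes contribute to this gap, in opposite directions, with log2 fold changes of 1.28 for JAL22 and -1.32 for JAL23. The precision of the ratio is limited by JAL23, with 17 and 21 counts in transgenic and 55 and 48 in wild-type libraries. For transgenic replicate 1 the exact Poisson interval of JAL23 ran from 9.90 to 27.2 counts, so the ratio of 427 is uncertain. No interval was computed for the ratio itself.

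The other lectin genes lie in a row on chromosome 3. PBP1 encodes the lectin first found as a binding partner of PYK10, and it stood at 598 and 571 CPM in transgenic, against 573 and 559 CPM in wild-type libraries. These ranges overlapped, and the log2 fold change was 0.046 (SE 0.095). JAL31, the next gene and a close relative of PBP1, stood at 39.4 and 38.1 CPM, against 33.3 and 32.1 CPM in wild type, a log2 fold change of 0.24 (SE 0.097).

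JAL33 had 177 and 171 CPM in transgenic libraries, against 123 and 115 CPM in wild type. Its groups did not overlap (174 ± 4.53 CPM in transgenic and 119 ± 6.19 CPM in wild type, SD, n = 2 each). The log2 fold change of 0.55 (SE 0.093) stayed between 0.49 and 0.60 with any 1 library left out. JAL34 had 386 and 372 CPM, against 352 and 336 CPM in wild type (log2 fold change 0.14, SE 0.094). Its groups did not overlap, but they lay only 19.4 CPM apart at the nearest values. The gene models of JAL34 and its neighbour JR1 overlap in the annotation, as do those of PYK10 and AT3G09250, so reads at those ends may be shared.

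Counted together, the 6 lectin genes had 1660 and 1529 CPM in transgenic libraries, against 1267 and 1208 CPM in wild type. Without JAL22 the sums were 1201 and 1153 CPM, against 1086 and 1045 CPM. JAL22 made up 27.7% and 24.6% of the lectin counts in transgenic libraries, against 14.3% and 13.5% in wild type, and PBP1 made up 36.0% and 37.4%, against 45.2% and 46.3%. The make-up of the lectin counts thus differed between genotypes mainly in the part of JAL22, and PBP1 had the most lectin counts in all 4 libraries, without a correction for length.

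**Figure D2:**
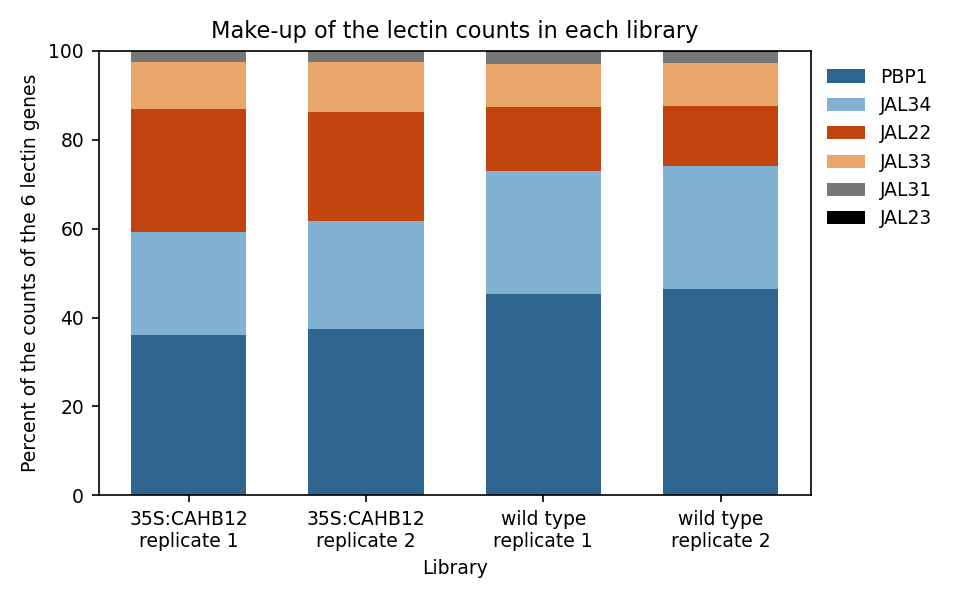
Percent of the counts of the 6 lectin genes that fell to each gene, in the 2 transgenic libraries (left) and the 2 wild-type libraries (right). The part of JAL22 is 27.7% and 24.6% in transgenic libraries against 14.3% and 13.5% in wild type, JAL33 changes little as a share (10.7% and 11.2% against 9.75% and 9.50%), and JAL23 is too low to be seen.

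PYK10, the main beta-glucosidase of ER bodies, stood at 1524 and 1384 CPM in transgenic, against 1214 and 1143 CPM in wild-type libraries. The groups did not overlap, and the log2 fold change of 0.30 (SE 0.10) lay between 0.22 (without transgenic replicate 1) and 0.37 (without transgenic replicate 2) with 1 library left out. The JAL22 counts per PYK10 count were 0.301 and 0.271 in transgenic libraries, against 0.149 and 0.142 in wild type, and these ranges did not overlap.

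BGLU21 and BGLU22, neighbours on chromosome 1, encode enzymes close to PYK10 that split scopolin in roots. BGLU21 had 15.4 and 18.4 CPM in transgenic libraries, against 15.4 and 14.1 CPM in wild type. BGLU22 had 21.2 and 18.0 CPM, against 17.0 and 15.5 CPM. The transgenic libraries differed in opposite directions for the 2 genes, and the sum of both was steadier, at 36.7 and 36.5 CPM in transgenic, against 32.4 and 29.6 CPM in wild type. How the counting placed reads that match close relatives such as BGLU21 and BGLU22, or PBP1 and JAL31, is not stated in the labels or headers, so the split within each pair is uncertain.

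NAI2, which shapes the ER body, had 154 and 141 CPM in transgenic, against 147 and 133 CPM in wild-type libraries. The ranges overlapped, and the log2 fold change was 0.079 (SE 0.10).

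All 10 genes together took 0.346% and 0.303% of the counts in transgenic libraries, against 0.266% and 0.250% in wild type. The groups did not overlap for 7 genes with the higher values in transgenic and 1 with the lower. Among all loci tested, 20.2% lay apart with the higher and 19.3% with the lower values in transgenic seedlings. By edgeR's quasi-likelihood test over all loci 1 of the 10 was called at an adjusted p under 0.05, JAL22, where 0.0838% of all loci were called (17 of 20298), 0.0345% as higher and 0.0493% as lower in transgenic seedlings. DESeq2 called JAL22 and JAL33, where it called 0.367% of all loci. Because JAL22 was known to be called when the set was put together, nothing is read from these counts.

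Levels of different genes were compared per length, as RPKM, with a deposited length that is close to the span of each gene, introns included. By mean RPKM, PYK10 was number 157 and PBP1 number 169 of all 20701 loci. In transgenic libraries PYK10 (461 and 419 RPKM) and PBP1 (382 and 365 RPKM) stood first, followed by JAL22 (167 and 137 RPKM), JAL34 (123 and 119 RPKM) and JAL33 (107 and 103 RPKM). In wild type PYK10 (368 and 346 RPKM) and PBP1 (366 and 357 RPKM) could not be ordered within their spread, and JAL34 (112 and 107 RPKM) and JAL33 (74.3 and 69.1 RPKM) stood above JAL22 (66.1 and 59.3 RPKM).

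JAL22 was therefore above JAL34 and JAL33 in both transgenic libraries and below them in both wild-type libraries. Below these, NAI2 (26.1 to 30.2 RPKM), JAL31 (21.0 to 25.8 RPKM), BGLU22 and BGLU21 (4.63 to 6.49 RPKM over both) and JAL23 (0.476 to 1.56 RPKM) kept this order in all 4 libraries, except that BGLU21 and BGLU22 changed places in transgenic replicate 2.

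The differences at JAL22 and JAL23 were set beside those of the genes around them. Of the protein-coding loci around JAL22, the 8 before it and the 10 after it in the annotation, 13 other than JAL23 were tested, and their log2 fold changes lay between -0.40 and 0.32. edgeR called 0 of these 13, beside 0.0838% of all loci, and DESeq2 0, beside 0.367%. An unadjusted edgeR p under 0.05 was found for 0 of the 13, beside 7.92% of all loci. With so few loci these counts are near the shares over all loci, and nothing is read from them. AT2G39320, between JAL22 and JAL23, was not analysed here.

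The lectin row on chromosome 3 runs from NSP3 to JR1, and its 5 loci outside the 10 genes had log2 fold changes between -0.15 and 0.15. These are the nitrile specifier genes NSP3, NSP1 and NSP4, which act in glucosinolate breakdown, the gene MLP-300B (AT3G16440, -0.0086) and the jasmonate-responsive lectin gene JR1 (-0.15, SE 0.11). edgeR and DESeq2 called 0 of the 5, beside 0.0838% and 0.367% of all loci. An unadjusted edgeR p under 0.05 was found for 0, beside 7.92%, and nothing is read from these counts either. By fold change, JAL33 stood between 2 flanking lectin genes with smaller values, MLP-300B and JAL34.

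**Figure D3:**
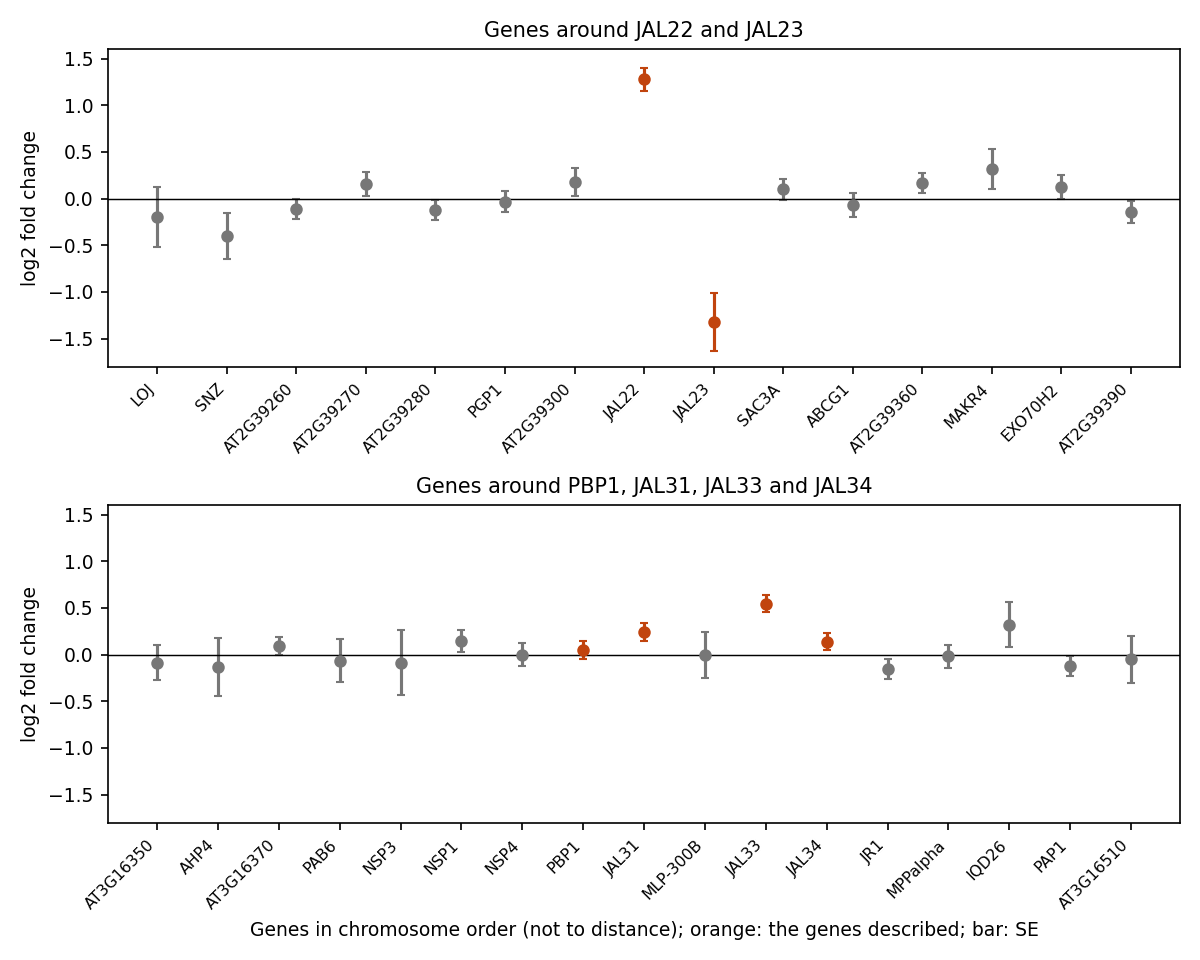
Log2 fold change of transgenic over wild type with its SE for the genes tested around JAL22 (top) and around the lectin row (bottom), in chromosome order and without distances. JAL22 (1.28) and JAL23 (-1.32) point in opposite directions between flanking genes from -0.40 to 0.32, and JAL33 (0.55) stands above the others of its row.

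Further genes of the ER body system came from a list of 11, all of which were tested. None passed: edgeR called 0 of the 11 and so did DESeq2 and limma, 1 had an unadjusted p under 0.05, as 7.92% of all loci did, and the median log2 fold change was 0.14. For 4 of the 11, NAI1, MEB1, MEB2 and ML3, both transgenic values lay above both wild-type values, beside 20.2% of all loci. NAI1, the regulator, had 22.6 and 17.6 CPM in transgenic, against 17.2 and 16.2 CPM in wild-type libraries (log2 fold change 0.26, SE 0.15). The ER body membrane protein genes MEB1 and MEB2 had 0.20 (SE 0.11) and 0.29 (SE 0.16). ML3 (AT5G23820), which encodes a lipid-recognition protein, had 0.34 (SE 0.11) and the lowest p of the list.

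TSA1, a relative of NAI2, had a log2 fold change of 0.15 (SE 0.13), and the GDSL lipase-like genes GLL22, GLL23 (AT1G54010) and MVP1 had 0.014, 0.14 and -0.016. BGLU18, the wound-linked ER body glucosidase, stood at 951 and 651 CPM in transgenic libraries, against 912 and 999.6 CPM in wild type (-0.25, SE 0.17). Transgenic replicate 2 was low for BGLU18, the 2 genotypes overlapped, and its log2 fold change was -0.56 without transgenic replicate 1 and -0.0067 without transgenic replicate 2. With 1 library left out, TSA1, GLL22, GLL23 and MVP1 each took both signs (-0.042 to 0.31 for TSA1), while NAI1 had 0.060 when transgenic replicate 1 was left out and 0.43 when transgenic replicate 2 was.

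**Figure D4:**
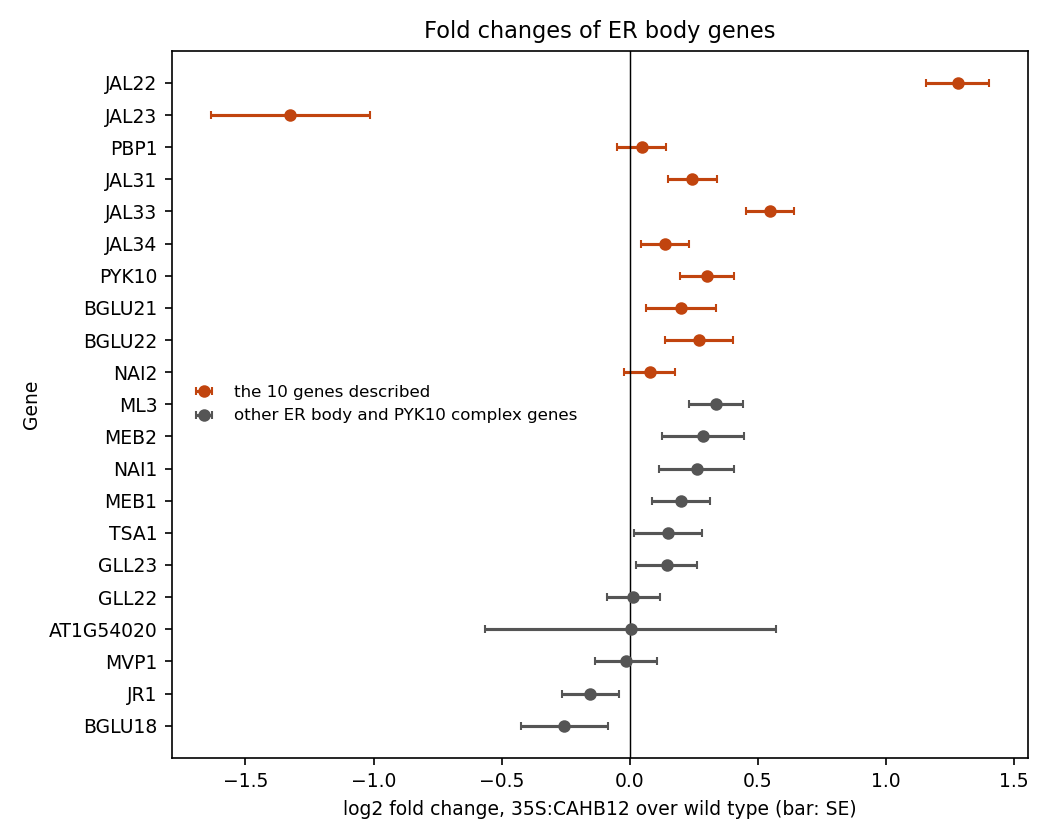
Log2 fold change of transgenic over wild type with its SE for the 10 genes and for the 11 further ER body and PYK10 complex genes, which were drawn up as a list. JAL22 at 1.28 and JAL23 at -1.32 lie far from the rest, and the further genes lie between -0.25 (BGLU18) and 0.34 (ML3).

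Other members of the lectin and glucosidase families were examined for comparison. A list of 34 loci drawn up as jacalin-related had 23 tested, with a median log2 fold change of -0.10. Of these 34, the name table gives a symbol for 5 and only a locus for 29, so the family of those 29 rests on the list. edgeR called 0, as did DESeq2 and limma, and 5 of the 23 had an unadjusted p under 0.05, beside 7.92% of all loci. The 4 with the lowest p had lower means in transgenic seedlings. These were AT5G49850 (-0.73, SE 0.19), AT1G73040 (-0.69, SE 0.22), the myrosinase-binding protein gene MBP2 (-0.57, SE 0.19) and AT1G60110 (-1.21, SE 0.41, from 7 to 20 counts per library). AT1G33790, the other of the 5, stood at 16.5 and 22.2 CPM in transgenic, against 8.56 and 15.98 CPM in wild-type libraries (0.64, SE 0.27). Its value was 0.28 without wild-type replicate 1 and 1.17 without wild-type replicate 2, where edgeR called it.

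A list of 7, the specifier list, held nitrile specifier and epithiospecifier genes and the modifier gene ESM1, which steer what glucosinolates break down to. Of these, 6 were tested, with a median log2 fold change of -0.16. edgeR, DESeq2 and limma called 0 while 2 had an unadjusted p under 0.05, beside the 7.92% of all loci. ESM1, a modifier that favours isothiocyanates, had 252 and 250.2 CPM in transgenic libraries, against 364 and 312 CPM in wild type (-0.43, SE 0.11). NSP5 had 131 and 143 CPM, against 166 and 202 CPM (-0.42, SE 0.12). ESP and NSP1 had log2 fold changes of -0.23 and 0.15.

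Among 42 other glucosidase loci 28 were tested, with a median of -0.10, 0 called by edgeR, DESeq2 or limma and 2 with an unadjusted p under 0.05, again beside 7.92% of all loci. Those 2 were the root myrosinase genes TGG5 (BGLU35; 0.84, SE 0.25) and TGG4 (BGLU34; 0.61, SE 0.24). They are close relatives, and their summed level was 8.28 and 7.43 CPM in transgenic, against 5.49 and 4.14 CPM in wild-type libraries. BGLU40 and BGLU28 followed, with -0.38 and -0.55.

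The loci whose profile over the 4 libraries was nearest to that of JAL22, by the Euclidean distance between centred log2 CPM values, were AT1G53540 (distance 0.15), LAP5 (0.19), AT1G10417 (0.19), the small heat shock protein gene HSP17.6II (0.26) and AT1G66020 (0.27). They were picked for likeness to JAL22 over only 4 libraries, so their higher levels in transgenic libraries follow from the choice. Their means in transgenic seedlings were at most 6.79 CPM. AT1G53540 had 7.58 and 5.83 CPM in transgenic libraries, against 2.55 and 2.59 CPM in wild type, and HSP17.6II had 7.08 and 6.51 CPM, against 2.49 and 2.17 CPM. LAP5 and AT1G10417 rested on 5 to 17 counts per library. Of the other 9 genes JAL33 was nearest to JAL22, at a distance of 0.75 with 187 loci nearer, then PYK10 at 0.98, and JAL23 was farthest at 2.56.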

How the data were processed

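Raw counts per locus, per the file headers, were used from a deposited table whose name says RPKM. The CPM deposited by the authors equal each count over the column total. The RPKM deposited by the authors divide these by a length per locus (an other value, in bases), which has a median of 0.939 of the gene span in the TAIR10.1 name table. BWA 0.5.8c, Bowtie, edgeR and TAIR9 are listed in the submitters' processing notes, with no role for each. The name table, which matched 20420 of 20701 loci, gave symbols, gene order and overlaps only. The microRNA table was not used.

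Groups came from the labels. edgeR 4.0.16 in R 4.3.3 (TMM, filterByExpr, glmQLFit, glmQLFTest, no covariate, Benjamini-Hochberg adjusted p under 0.05) was fitted to all loci and tested on simulated data. The common biological coefficient of variation was 0.103. SE is the log2 fold change over the root of F. Reported CPM and RPKM use TMM factors. A count of 0 allows up to 0.155 to 0.192 CPM (3 counts per library). Log2 CPM had a prior of 2. Alternatives were RLE or no factors, no filter, robust fitting, DESeq2 1.42.0, limma 3.58.1 on log2(RPKM + 0.5), a replicate block and each library left out. The members and lists were chosen with earlier results of these data known. Named were the 10 genes, up to 4 per list by smallest p, a fixed set of ER body genes, and the 5 loci nearest to JAL22. Pools are labelled biological replicates, and the p-values measure only the spread between them. Figures used matplotlib 3.10.9.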

Additional observations from a re-analysis of the deposited data

How the results depend on the processing

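The log2 fold change of each of the 10 genes kept its sign in all 11 alternatives. The set was selected on JAL22 in these same libraries, so these values are a description and their calls support nothing. JAL22 lay at 1.27 to 1.29 in the alternatives that keep all libraries, and limma on log2(RPKM + 0.5) did not call it. JAL33 was past the threshold in DESeq2, with the replicate block and without wild-type replicate 1, and JAL23 with the replicate block. JAL23 moved to -0.83 in limma, where the pseudocount shrinks low genes, and PBP1 to 0.0033 without transgenic replicate 1. The number of loci called, 17, was 76 with DESeq2, 31 with robust fitting and 10 with limma, and it ranged from 16 to 411 with 1 library left out (411 when wild-type replicate 2 was left out and 72 when wild-type replicate 1 was). The cause was not tested. With the replicate block edgeR called 596 of the 20298 loci tested, against 17 without it. Replicate numbers are not said to pair the pools, and the differences between replicates 1 and 2 in the 2 genotypes correlated across loci with r = 0.228. Of the 23 jacalin-related loci tested outside the 10 genes, the block called 2 (AT5G49850 and AT1G33790). It also called 2 of the 6 specifier genes tested (ESM1 and NSP5) and 1 of the 11 further ER body genes (ML3). Without the block 0 of these lists were called. As the block called more loci throughout, nothing is read from these list counts. The green tissue markers CAB2, LHCB2.1 and LHCB2.3, the root marker IRT1 and the seed storage marker CRU3 were called with the block too. With 1 library left out these lists had 0 to 1 called for the jacalin-related and 0 to 1 for the specifier genes (AT1G33790 and ESM1, when wild-type replicate 2 was left out), and 0 to 1 for the other glucosidases, which was BGLU19 without transgenic replicate 1. With 2 libraries per genotype, depth limits mainly JAL23, at 17 to 55 counts per library.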

Other observations

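The glucosidase BGLU19 stood at 1.71 and 12.9 CPM in the transgenic libraries, against 4.34 and 3.41 CPM in wild type, and so differed more between the transgenic pools than between the genotypes. The 4 seed storage and oil body markers that were counted differed between the same pools, with summed levels of 2.21 and 119 CPM in transgenic libraries, against 19.7 and 45.8 CPM in wild type. In both cases transgenic replicate 1 was the lowest and transgenic replicate 2 the highest library. JAL22 had its highest level in transgenic replicate 1. Whether these differences between pools bear on the level of JAL22 was not tested.

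The myrosinase genes TGG1 and TGG2, which act in leaves and belong to the same enzyme family as PYK10, had log2 fold changes of -0.12 (SE 0.099) and -0.15 (SE 0.098). TGG1 stood at 1803 and 1768 CPM in transgenic libraries, against 1921 and 1962 CPM in wild type. BGLU19, TGG1 and TGG2 were chosen after their values were seen.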
